A study of Bos taurus with 2 samples.

Results

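The genes described here carry a numbered ZNF symbol, the name given to many proteins that hold zinc fingers. They were chosen by the FPKM values themselves: the FPKM of loci with the same symbol were summed, and a gene was kept where the mean of both embryo pools was at least 1 FPKM. This gave 105 genes of 271 numbered ZNF symbols, or 38.7%, beside 7984 of all 21209 symbols, or 37.6%. The level in the pools therefore chose the genes, and it is given as a description. The difference between the pools was not a criterion, but a gene near this level could be kept through the pool where it was higher: 90 of the genes reached 1 FPKM in both pools, 10 in the sham pool alone and 5 in the injected pool alone.

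Bovine (Bos taurus) embryos were produced in vitro, and RNA-Seq was used to ask which transcripts differ when CDKN1C, an imprinted inhibitor of the cell cycle, is knocked down. The CDKN1C-siRNA-injected pool came from zygotes that received siRNA against CDKN1C, and the sham-injected pool from zygotes punctured by the needle without siRNA. No other allele or agent is named for either pool, and the sources used here do not give the number of embryos, their sex, or the dose and day for the sequenced pools. With 1 library in each group there are no replicates, so no difference below has an error, a replicate check or a p-value.

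Most ZNF proteins bind DNA through C2H2 fingers, in which a pair of cysteines and a pair of histidines hold a zinc ion, and a row of such fingers reads a stretch of sequence. Many also carry a KRAB domain, which recruits TRIM28 and, through it, enzymes that lay down repressive histone marks. KRAB zinc finger proteins silence transposable elements and keep imprinted regions methylated in early embryos, and their genes often lie in clusters of related copies. Other ZNF proteins activate transcription or work on RNA, ribosomes and chromatin without a KRAB domain. Related copies may share reads, so that a value of a single gene within a cluster is uncertain.

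CDKN1C itself was 14.6 FPKM with siRNA and 49.5 FPKM in sham embryos, which was 3.40 times lower after siRNA. All 8 trophectoderm markers and all 4 epiblast markers had a mean of at least 1 FPKM, with sums of 7572 and 117 FPKM in the injected pool and of 17557 and 231 FPKM in the sham pool. Most of the trophectoderm sum was KRT18, at 5389 against 11245 FPKM, and KRT8, at 1610.5 against 5760 FPKM (5759.9). CDX2 at 1.19 against 3.76, GATA3 at 11.4 against 18.9 and GATA2 at 379 against 461 FPKM were also lower with siRNA. Among epiblast markers POU5F1 at 56.3 against 170, NANOG at 15.1 against 23.9 and SOX2 at 4.37 against 5.87 FPKM were lower. IFNT2 at 135 against 31.1 FPKM, TFAP2C at 40.7 against 34.1 FPKM and ELF5 at 4.64 against 3.37 FPKM were higher with siRNA. The epiblast marker DPPA3, at 41.0 against 30.6 FPKM, was also higher. Among 4 hypoblast markers GATA6 and PDGFRA passed this level, and SOX17 was listed at 0 in both pools. Of markers of other cells, the 4 of fibroblasts summed to 0.843 and 0.0930 FPKM, the 3 of blood to 0.0528 and 0.0956 FPKM, and the 5 of cumulus and granulosa cells to 5.18 and 6.24 FPKM, of which FSHR held 4.87 and 5.69 FPKM. COL1A1, HBB and PTX3, 1 marker of each of these 3 lists, were listed at 0 in both pools, while the fibroblast markers DCN and COL3A1 were 0.653 against 0.0559 FPKM and 0.190 against 0.00526 FPKM. The part of these markers in the differences below was not tested. In such bulk samples, fewer cells of a type and less RNA per cell cannot be told apart.

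Expressed ZNF genes stood at low levels. Their median of the mean FPKM was 2.78, against 6.56 for all genes tested, and 20 of 105, or 19.0%, reached 10 FPKM, a level reached by 40.1% of all genes tested. Another 67 ZNF genes lay between 1 and 5 FPKM. Summed FPKM of the 105 genes came to 1428 in the injected pool and 1630 (1629.6) in the sham pool, which was 0.136% and 0.118% of all FPKM.

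A group of 3 genes made up 61.2% of the summed ZNF level in the injected pool and 58.4% in the sham pool. ZNF593, a factor of large ribosomal subunit assembly (bosTau7 chr2:132440958-132442039), was the highest, at 399 FPKM with siRNA and 689 FPKM in sham embryos. ZNF638 (bosTau7 chr11:13858063-13967978), which recruits the HUSH silencing complex to unintegrated retroviral DNA, was second at 375 FPKM with siRNA and 143 FPKM in sham embryos. ZNF706, a small protein that holds back KLF4 when mouse embryonic stem cells leave self-renewal, was 99.9 FPKM with siRNA and 119 FPKM in sham embryos. The order of the first pair was the same in both pools, but ZNF638 was close to ZNF593 only in the injected pool.

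The next genes by level went both ways. ZNF383 was 41.0 FPKM with siRNA and 39.9 FPKM in sham embryos, and ZNF576 was 42.1 FPKM and 30.3 FPKM. ZNF622, which matures the large ribosomal subunit, was 23.9 FPKM after siRNA injection and 45.1 FPKM in sham embryos. ZNF177 had 22.1 FPKM with siRNA and 42.6 FPKM in sham embryos. These last 2 genes lay just under a 2-fold difference, while the first 2 were equal or higher in the injected pool.

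ZNF45 was 21.2 FPKM in the injected pool against 29.3 FPKM in the sham pool, ZNF414 20.4 against 27.9 FPKM, and ZNF273 18.3 against 18.7 FPKM. ZNF154, the only one of the 105 genes with several loci, was 21.2 FPKM against 24.6 FPKM in sum. Its loci on chromosome 18 differed in direction, at 15.7 against 20.6 FPKM and 5.47 against 3.97 FPKM. ZNF331, an imprinted zinc finger gene in humans, was 22.2 FPKM with siRNA and 12.8 FPKM in sham embryos, one of the higher genes on chromosome 18. Of the 20 highest ZNF genes of each pool, 17 were shared, or 85.0% of each list, and the levels in the pools had a Spearman's rho of 0.76 over the 105 genes, against 0.88 over all 7984 genes tested, which cover a wider range of levels.

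**Figure D1:**
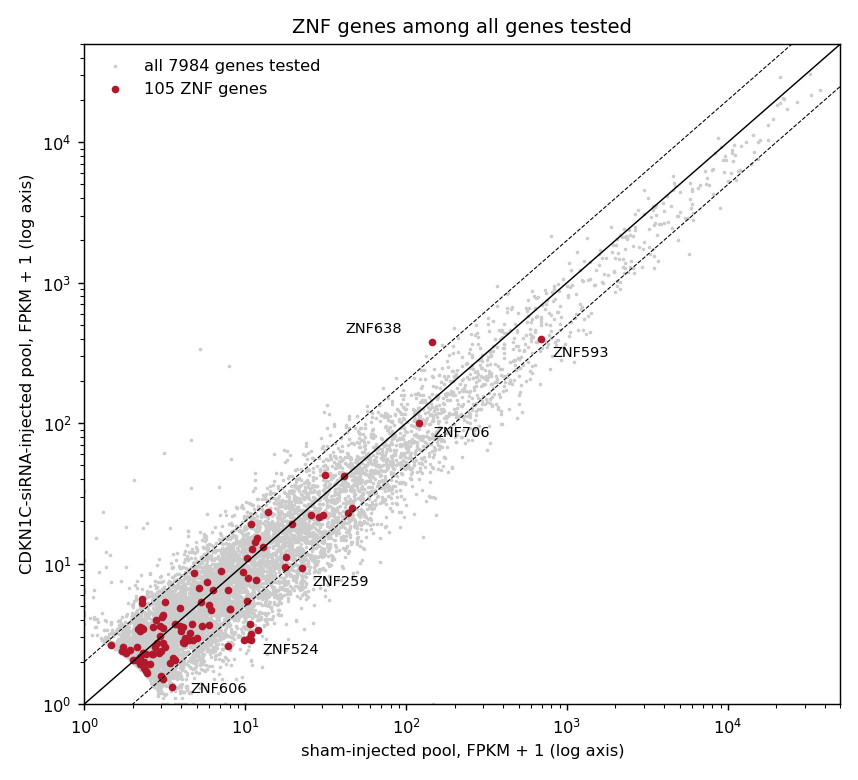
Each point is a gene, with its sham FPKM + 1 on the horizontal log axis and its injected FPKM + 1 on the vertical log axis (1 library each). Red points are the 105 ZNF genes and grey points all 7984 genes tested, dashed lines stand for a 2-fold difference of FPKM + 1 around the solid line of equality, and ZNF593, ZNF638 and ZNF706 lie above the other ZNF genes.

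For the comparison between pools, the difference of a gene was taken as the log2 ratio of injected to sham FPKM with 1 FPKM added to each, a scale that understates the change of low genes. Most ZNF genes lay near each other in the pools. Of 105 genes, 92, or 87.6%, differed by less than 2-fold on this scale, against 79.4% of all genes tested. The median log2 difference was -0.21 over ZNF genes and -0.17 over all genes tested, with quartiles of -0.61 and 0.31 beside -0.73 and 0.33. Given an equal FPKM sum in each pool, these medians became 0.11 and 0.16, so that the direction of the ZNF median depends on the scaling.

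By direction, 40 ZNF genes were higher in the injected pool and 65 lower, or 38.1% higher, beside 41.7% of all genes tested. At least 2-fold higher were 3 genes, or 2.86%, where the background over all genes tested was 4.92%. At least 2-fold lower were 10 genes, or 9.52%, where the background was 15.7%. With 1 FPKM added none reached 4-fold in either direction, a size seen in 1.47% of all genes tested. With 0.1 FPKM added, 7 ZNF genes were at least 4-fold lower, beside 3.24% of all genes tested, and 0 were 4-fold higher. With equal sums, 8 ZNF genes passed 2-fold upward and 8 downward, or 7.62% each, beside 12.7% and 7.83% of all genes tested. At 2-fold the ZNF shares lay under these backgrounds on both scales, though the lower genes were close to theirs with equal sums. At 4-fold with 0.1 FPKM added, the 7 lower genes of 105 were a larger share than the 3.24% of all genes tested. Among these 7, ZNF606 was kept only through the sham pool, so its direction is in part fixed by the choice.

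**Figure D2:**
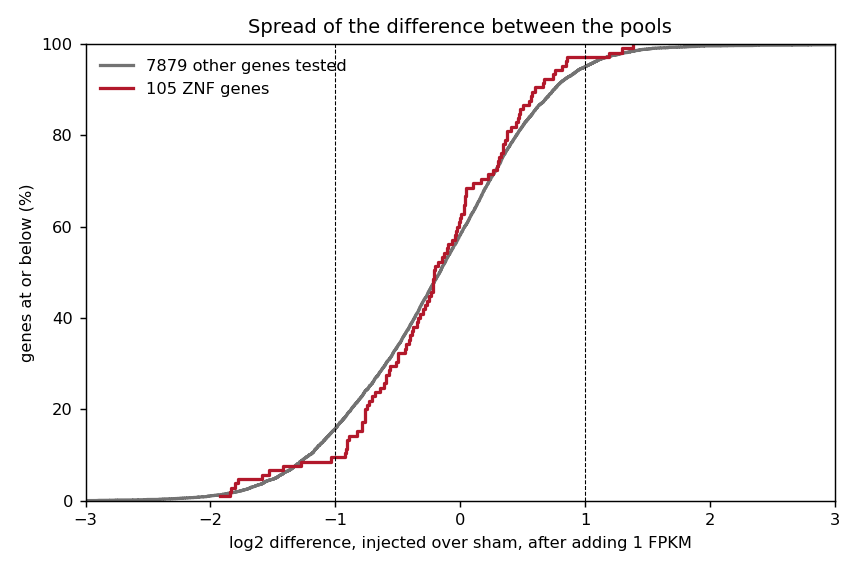
Share of genes (vertical, %) at or below each log2 ratio of injected to sham FPKM + 1 (horizontal), for the 105 ZNF genes (red) and the 7879 other genes tested (grey). Dashed lines mark 2-fold, and outside them lie 3 ZNF genes on the right and 10 on the left.

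Split by level, the ZNF genes at least 2-fold lower were mostly of the middle range. Among genes that averaged 5 to 20 FPKM, 7 of 28 ZNF genes, or 25%, were at least 2-fold lower, beside 17.9% of 2406 other genes at that level. Between 1 and 2 FPKM it was 2 of 38 ZNF genes, or 5.26%, beside 8.88% of other genes, and between 2 and 5 FPKM 1 of 29, or 3.45%, beside 12.1%. Of the 10 ZNF genes at 20 FPKM or more none was at least 2-fold lower, beside 21.4% of 2132 other genes. The median log2 difference of ZNF genes went from -0.10 in the lowest of these ranges to -0.34 in the highest, and that of other genes from -0.0029 to -0.38.

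The 3 genes at least 2-fold higher in the injected pool were ZNF638, ZNF238 and ZNF438. ZNF638 had the highest difference, 2.62-fold as a ratio of FPKM and 1.38 on the log2 scale, and 126 of all 7984 genes tested were as high or higher. Its locus overlaps that of LOC789453, which was at 0 FPKM with siRNA and 0.390 FPKM in sham embryos. ZNF238, known today as ZBTB18, a transcriptional repressor that acts in neural development (bosTau7 chr16:30467122-30473137), was 4.56 FPKM with siRNA and 1.27 FPKM in sham embryos. ZNF438 (bosTau7 chr13:34094490-34299392) was 4.22 FPKM against 1.28 FPKM. The last 2 genes had larger ratios than ZNF638, 3.58-fold and 3.29-fold, at much lower levels.

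Below 2-fold on this scale, the next highest differences included factors with known nuclear roles. ZNF167, known today as ZKSCAN7, was 1.63 FPKM with siRNA and 0.460 FPKM in sham embryos, and its mean lay just above the level required. It was kept only through the injected pool, so its direction is in part fixed by the choice. ZNF830, a splicing-associated protein, was 7.60 against 3.78 FPKM. ZNF131, a factor with a BTB domain, was 18.2 against 9.94 FPKM. ZNF326, of the DBIRD complex that links elongation by RNA polymerase II to splicing, was 4.32 against 2.19 FPKM, and ZNF609, a cofactor of Integrator, was 2.45 against 1.17 FPKM. Each of these was between 1.83-fold and 3.54-fold higher as a ratio of FPKM.

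ZNF146, ZNF382 and ZNF250 were the last of the 12 highest, at 2.51 against 1.22 FPKM, 2.47 against 1.30 FPKM and 2.29 against 1.21 FPKM. The loci of the first 2 coincide with those of other zinc finger genes. ZNF565 at the ZNF146 locus was 1.06 FPKM with siRNA and 0.631 FPKM in sham embryos, and ZNF529 at the ZNF382 locus was 0.0620 and 0.0301 FPKM. Both pairs were higher with siRNA, and how reads were divided within them was not tested.

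Of the 10 genes lower with siRNA by 2-fold or more, 5 had almost the same values, and ZNF691 was close to them. ZNF524 (bosTau7 chr18:62191996-62195156) showed the lowest difference, at 1.88 FPKM with siRNA and 9.93 FPKM in sham embryos, -1.92 on the log2 scale. ZNF584 was 2.35 against 11.0 FPKM, and ZNF771 1.91 against 9.40 FPKM. ZNF692 was 2.13 against 9.92 FPKM, ZNF775 1.85 against 8.78 FPKM, and ZNF691 1.58 against 6.77 FPKM. These genes lie on several chromosomes, 18, 25, 7, 4 and 3 among them, and had from 4.28-fold to 5.28-fold less FPKM with siRNA. The added 1 FPKM brings such differences to between -1.92 and -1.59 on the log2 scale.

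ZNF577, a zinc finger gene at bosTau7 chr18:57627081-57637514, was 2.72 FPKM with siRNA and 9.76 FPKM in sham embryos. ZNF259, known today as ZPR1, which binds the elongation factor EEF1A, was 8.28 against 21.5 FPKM, the highest level of the 10 genes. ZNF606 was 0.316 FPKM with siRNA and 2.51 FPKM in sham embryos, a ratio of 7.95-fold in FPKM. ZNF575 was 0.511 against 2.10 FPKM. These 2 genes were kept only through the sham pool, where they were higher, so that their direction is in part fixed by the choice. Just short of 2-fold on the log2 scale were ZNF174, at 4.41 against 9.27 FPKM, and ZNF177.

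**Figure D3:**
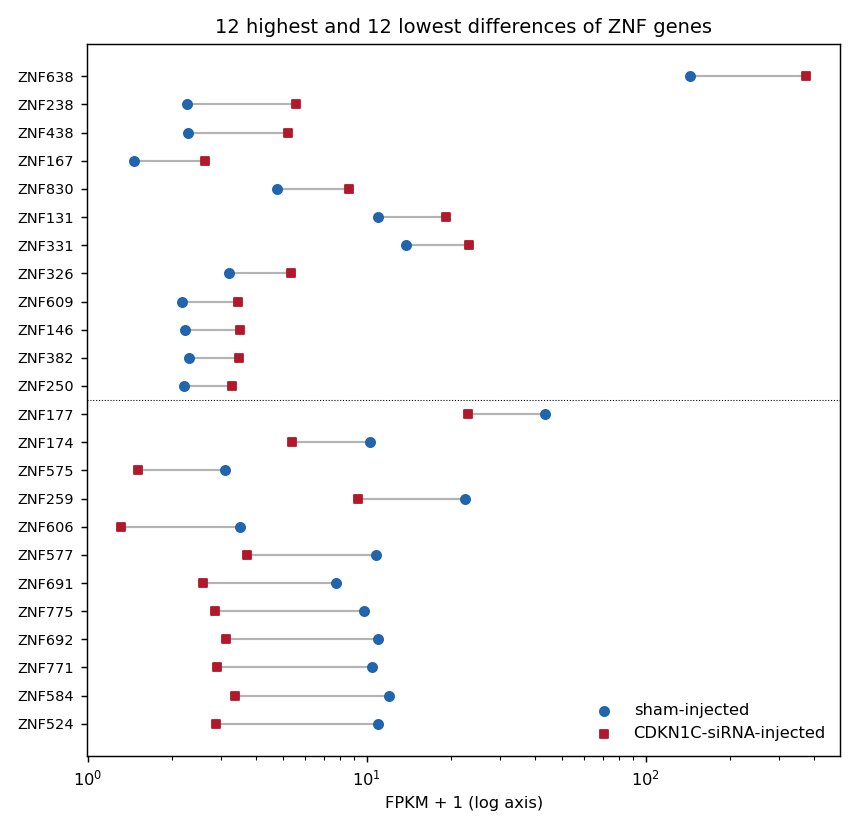
FPKM + 1 (horizontal, log axis) of the 12 highest (above the dotted line) and 12 lowest (below it) ZNF differences in sham embryos (blue circles) and embryos given CDKN1C siRNA (red squares), 1 library each. ZNF638 stands alone at a high level among the genes above the line, and ZNF524, ZNF584, ZNF771, ZNF692 and ZNF775 share nearly the same pair of values below it.

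ZNF proteins that work on RNA and ribosomes were split. Of 12 such genes listed, 8 had a mean of at least 1 FPKM. In the injected pool 3 of them were higher and 5 lower, beside 41.7% higher among all genes tested. Their median log2 difference was -0.23, beside -0.17 for all genes tested. ZNF593, ZNF622 and ZNF259, picked from this list after their values were seen, had log2 differences of -0.79, -0.89 and -1.28. With equal FPKM sums these became -0.39, -0.51 and -0.92. ZNF207, known as BuGZ, which binds BUB3 and spindle microtubules, was 6.91 against 9.46 FPKM. ZNF330, a nucleolar protein, was 5.71 against 4.19 FPKM, and ZNF318, of alternative RNA processing, 1.04 against 1.11 FPKM.

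Of 14 genes listed for chromatin and imprints, 6 were expressed at this level, 3 of them higher and 3 lower, beside 41.7% higher among all genes tested. ZNF638 was the only one past 2-fold with 1 FPKM added, where 4.92% of all genes tested were at least 2-fold higher. ZNF532, a partner of ZMYND8, was 13.3 FPKM with siRNA and 10.6 FPKM in sham embryos, while ZNF592, another partner of ZMYND8, was 1.95 against 4.02 FPKM. ZNF277, which works with Polycomb repressive complex 1, was 7.90 against 6.11 FPKM. ZNF410, the activator of CHD4 transcription, was 2.64 against 4.96 FPKM, and ZNF274, which brings SETDB1 to zinc finger clusters, 4.11 against 4.94 FPKM. ZNF445, which keeps methylation at imprinted regions, was listed at 0 in both pools, and ZNF644, ZNF618, ZNF687, ZNF827 and ZNF335 had means under 1 FPKM.

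In the list for pluripotent and stem cells, 3 of 7 genes were expressed and each was lower with siRNA by less than 2-fold. Of all genes tested, 58.3% were lower with siRNA by any size. ZNF706 had a log2 difference of -0.25. ZNF296, a partner of KLF4 in reprogramming, was 2.59 FPKM with siRNA and 2.94 FPKM in sham embryos. ZNF217, which works with CoREST and LSD1, was 1.87 against 3.48 FPKM. With equal FPKM sums the values were 0.14 for ZNF706, 0.16 for ZNF296 and -0.37 for ZNF217, so that the direction of the first 2 turned.

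Of 15 general transcription factors listed, 13 were found and 7 were expressed at this level. Of these 7 genes, 5 were higher and 2 lower with siRNA, beside 41.7% higher among all genes tested. All 7 were within 2-fold with 1 FPKM added. ZNF143, the activator of snRNA and housekeeping promoters, was 1.54 FPKM with siRNA and 0.739 FPKM in sham embryos, while its relative ZNF76 was 1.71 against 3.14 FPKM. ZNF143, counted among the 5 higher genes, was kept only through the injected pool, so its direction is in part fixed by the choice. ZNF24, a SCAN domain repressor, was 3.15 against 2.05 FPKM, and ZNF350, which binds BRCA1, 2.56 against 1.69 FPKM. ZNF384, which binds A-rich DNA, was 3.72 against 7.0 FPKM. The median log2 difference of these 7 genes was 0.44, beside -0.17 for all genes tested, with ZNF131 and ZNF609 on its higher side. ZNF148 and ZNF263, below the level, were 0.269 against 0.155 FPKM and 0.190 against 0.627 FPKM. In a list of 5 genes of protein modification only ZNF451, a SUMO ligase, was found under its symbol, at 0.868 against 0.501 FPKM.

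ZNF genes were unevenly placed in the genome. Chromosome 18 held 31 of the 105 genes, or 29.5%, while it held 5.96% of all genes tested. Chromosome 25 had 12, chromosome 7 had 8, and the other 54 lay on 21 further chromosomes with at most 5 each. Of 86 numbered ZNF symbols on chromosome 18, 36.0% were expressed at this level, and of 19 on chromosome 25 it was 63.2%.

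On chromosome 18 ZNF genes had a less negative median difference than other genes there. The median log2 difference was -0.13 over 31 ZNF genes, and that of 445 other genes tested there was -0.58. At least 2-fold lower were 5 ZNF genes, or 16.1%, and 28.8% of the other genes, and higher by any size were 41.9% and 21.6%. With a mean under 5 FPKM the medians were -0.069 over 20 ZNF genes and -0.45 over 175 other genes. On chromosome 25 the medians were -0.36 over 12 ZNF genes and -0.61 over 330 other genes, and on chromosome 7 they were -0.33 over 8 and -0.40 over 483. Over all other chromosomes they were -0.15 over 54 ZNF genes and -0.10 (-0.098) over 6621 others. No test of these differences was made.

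**Figure D4:**
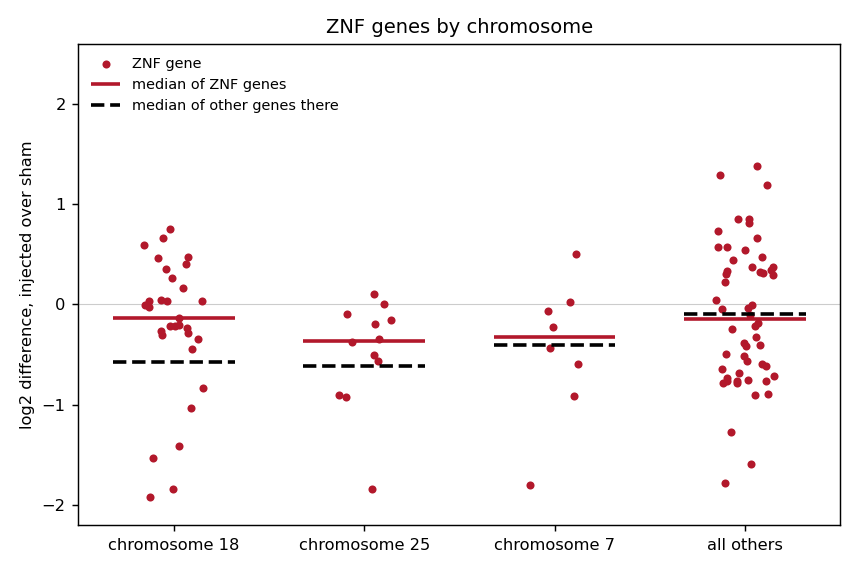
Log2 ratio of injected to sham FPKM + 1 (vertical) of each ZNF gene on chromosomes 18, 25 and 7 and on all others, with red lines for the median of ZNF genes and dashed black lines for that of other genes tested there. The red line lies above the black line on chromosome 18, at -0.13 against -0.58.

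Neighbours on chromosome 18 often went different ways. In a run of 5 genes within bosTau7 chr18:57627081-57757270, ZNF577 was at least 2-fold lower with siRNA, ZNF613 was 1.31 FPKM with siRNA and 1.93 FPKM in sham embryos, ZNF432 was 1.56 against 1.14 FPKM, ZNF614 was 2.73 against 2.65 FPKM, and ZNF350 was higher. Near the end of the chromosome, ZNF606 and ZNF584 were at least 2-fold lower, whereas ZNF329 and ZNF274 between them were 5.50 against 5.33 FPKM and 4.11 against 4.94 FPKM. ZNF575 and ZNF576, whose loci are close to each other, had log2 differences of -1.04 and 0.46. By contrast, the 4 genes between 46088531 and 46681408, ZNF146, ZNF382, ZNF383 and ZNF527, were each higher in the injected pool, with log2 differences of 0.66, 0.59, 0.038 and 0.47.

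Of the 12 genes of chromosome 25, 10 were lower in the injected pool, as were 265 of 330 other genes tested there. Only ZNF205, with a log2 difference of 0.10, and ZNF200, at 1.32 FPKM in both pools, were not lower. ZNF48 and ZNF771 lie side by side, and the first was 1.76 against 3.10 FPKM where the second passed 2-fold. ZNF688, at 8.50 against 16.8 FPKM, had a log2 difference of -0.90, close to that of ZNF174. ZNF668 was 3.70 against 5.11 FPKM, ZNF394 was 7.68 against 8.63 FPKM, and ZNF12 was 2.71 against 3.69 FPKM. On chromosome 4, the neighbours ZNF786, ZNF777, ZNF746 and ZNF775 differed in direction, at 1.13 against 2.58 FPKM, 2.44 against 1.32 FPKM, 1.27 against 1.64 FPKM and 1.85 against 8.78 FPKM. Among these 4 genes ZNF777 alone was higher with siRNA.

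ZNF loci were shorter and lay among more genes than those of all genes tested. The median locus length was 12757 bases, against 18954 bases, and the median number of genes within 1 Mb was 53, against 27. Across all 7984 genes tested the log2 difference went with locus length at a Spearman's rho of 0.29 and with the number of genes nearby at -0.42. Over the 105 ZNF genes the same rho were 0.22 and -0.17. Genes share libraries and neighbourhoods, so these values are descriptions. All genes tested were split into 3 equal groups by locus length. Among the shortest loci, of at most 10584 bases, 8 of 40 ZNF genes, or 20%, were at least 2-fold lower, beside 25.7% of other genes. Among the middle loci it was 2 of 44, or 4.55%, beside 15.0%, and among the longest 0 of 21 beside 6.74%. The median log2 difference of ZNF genes was -0.33, -0.21 and 0.028 in these 3 groups, beside -0.49, -0.18 and 0.11 for other genes.

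Genes listed for silencing by KRAB zinc finger proteins, relatives of TRIM28 included, had more transcript with siRNA more often than not. Of 29 listed, 24 were found under these symbols and 20 had a mean of at least 1 FPKM, of which 12 were higher and 8 lower, or 60% higher beside 41.7% of all genes tested. Their median log2 difference was 0.32, beside -0.17 for all genes tested and -0.21 for the ZNF genes. TRIM28, the scaffold that KRAB domains bind, had the lowest difference of them, at 5.79 FPKM with siRNA and 20.3 FPKM in sham embryos. With 1 FPKM added it was the only one at least 2-fold lower, or 5% of the list beside 15.7% of all genes tested. The H3K9 methyltransferase SETDB1 was 1.49 against 1.59 FPKM. At least 2-fold higher on that scale were 2 genes, or 10%, beside 4.92%. They were MTA2, a NuRD subunit, at 23.8 against 8.70 FPKM, and MPHOSPH8 of the HUSH complex at 85.7 against 41.6 FPKM.

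Other members of these complexes went both ways. The HP1 genes CBX1 and CBX5 were 46.0 against 28.0 FPKM and 117 against 73.1 FPKM, and the deacetylase genes HDAC2 and HDAC1 were 14.3 against 6.93 FPKM and 34.9 against 39.3 FPKM. Within NuRD, MBD3 was 4.97 against 10.8 FPKM and CHD4 14.1 against 17.8 FPKM. PPHLN1 and FAM208A, of the HUSH complex, were 14.3 against 10.7 FPKM and 1.86 against 0.909 FPKM. FAM208A was kept only through the injected pool, where it was higher. DNA methyltransferases DNMT3A and DNMT1 were 17.0 against 23.0 FPKM and 1.67 against 2.03 FPKM.

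**Figure D5:**
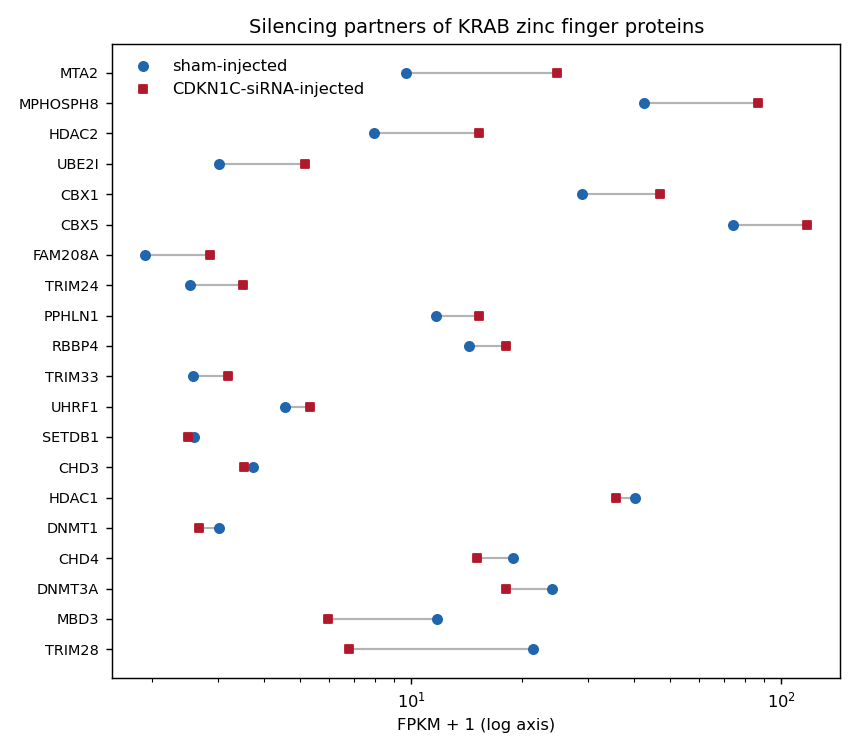
FPKM + 1 (horizontal, log axis) of 20 genes listed for silencing by KRAB zinc finger proteins, from the highest to the lowest difference, in sham embryos (blue circles) and embryos given CDKN1C siRNA (red squares), 1 library each. MTA2 and MPHOSPH8 are more than 2-fold higher with siRNA on this scale and TRIM28 at the bottom is lower.

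Families named ZBTB, ZSCAN, ZKSCAN and ZFP, most of which have the same kind of finger, gave 20 genes that averaged 1 FPKM or more. They had a median log2 difference of 0.32, with 12 higher after siRNA and 8 lower, or 60% higher beside 41.7% of all genes tested. With 1 FPKM added, ZBTB17 alone of these was at least 2-fold lower, at 3.62 against 8.29 FPKM, which is 5% beside 15.7%. The median turned to -0.0048 when every gene above 0 in either pool was taken. Among the higher were ZBTB10 at 9.58 against 4.52 FPKM and ZFP91 at 21.0 against 11.9 FPKM, and ZSCAN21, the highest in level, was 21.8 against 22.1 FPKM. The pattern of names also took in ZFP36, ZFP36L1 and ZFP36L2, which have fingers of another kind and bind RNA, and ZBTB8OS, which is not a zinc finger gene. Without these 4 the median was 0.18 over 16 genes.

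The level required separated genes of almost equal values. Just inside it were ZNF502 with a mean of 1.03 FPKM, ZNF167 with 1.05, ZNF782 with 1.05 and ZNF512 with 1.06 FPKM. Just outside lay ZNF7 with 0.978, ZNF420 with 0.967, ZNF599 with 0.966 and ZNF323 with 0.962 FPKM. Of the 166 ZNF genes below the level, 28 were listed at 0 in both pools, and the sham value was above 0 where the injected value was 0 for 11, against 7 the other way round. ZNF280B, ZNF354A and ZNF415, which like ZNF154 have several loci, were among those below the level. A further locus with the joint symbol ZNF107,ZNF836 was outside the rule, at 76.3 FPKM with siRNA and 156 FPKM in sham embryos. Genes known today by other names, such as those of the ZBTB and ZKSCAN families above, were counted by the symbol in the FPKM values.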

How the data were processed

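RNA of 1 CDKN1C-siRNA-injected and 1 sham-injected pool of bovine embryos was amplified and sequenced by the authors, who mapped the reads to bosTau7 with TopHat. The authors made FPKM values with Cufflinks 2.0.2, scaled by the upper quartile and corrected for bias from read sequence. The gene annotation is not given in the sources used here, and FPKM carry no read counts, so depth is unknown.

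Both pools list 22220 loci. Loci without a symbol (615) were left out and loci with the same symbol summed. The log2 difference used an added value of 1 FPKM, over genes whose pools averaged 1 FPKM or more. No test was run with 1 library per group. Named genes are the 12 highest by level, the 12 highest and 12 lowest differences, 4 genes on each side of the level required, ZNF symbols at several loci, and genes of role lists written from textbook knowledge. Genes of the chromosome runs, and single genes named outside this rule such as those of other families, were picked after their values were seen. A gene of the list of silencing partners is not reported here and was left out of its counts. The members and lists were chosen with earlier results of these data known. Of the 105 symbols, 94 matched RefSeq (ARS-UCD2.0) by symbol and 5 by an older symbol. The other 6 were not matched, ZNF273, ZNF577 and ZNF606 among them. The calculation was tested on simulated data. Alternatives were other added values, filters, scalings and folds, and the highest locus in place of the sum. Python 3.11.15, pandas 2.3.3, NumPy 2.4.6 and matplotlib 3.10.9 were used.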

Additional observations from a re-analysis of the deposited data

How the results depend on the processing

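No test between pools was possible with 1 library each, and depth is unknown. No paired analysis was possible because each group has 1 library. The split of ZNF genes by a KRAB domain was not run, since no protein sequences were used here. No ZNF gene at least 2-fold apart changed direction under another scaling. An added value cannot change a direction. The highest locus could not change one here either, since none of these genes has several loci. With 0.1 FPKM added, 5 ZNF genes were at least 2-fold higher and 17 lower, or 4.76% and 16.2%, beside 8.67% and 20.5% of all genes tested. With 5 FPKM added, 1 was higher and 5 lower (beside 1.49% and 7.49%), the ZNF median was -0.084, and the medians of silencing partners and other families were 0.17 and 0.20. With every gene above 0 in either pool, the ZNF median was -0.030 over 243 genes, and that of other families turned to -0.0048. With a mean of at least 5 FPKM, the ZNF median was -0.34 over 38 genes, and 1 was at least 2-fold higher and 7 lower (2.63% and 18.4%, beside 4.96% and 19.6% of genes at that level). With the median of all genes set to 0, the ZNF median was -0.043, 5 genes were at least 2-fold higher and 9 lower (beside 7.72% and 11.0%), and the medians of partners and other families were 0.48 and 0.48. With the same total FPKM, the ZNF median turned to 0.11, and the other medians were 0.65 and 0.67. On that scale 8 ZNF genes were at least 2-fold higher and 8 lower (beside 12.7% and 7.83%). At 1.5-fold, 11 ZNF genes were higher and 29 lower, or 10.5% and 27.6%, beside 14.9% and 30.5% of all genes tested. Chosen after seeing the data, the median of other families without ZFP36, ZFP36L1, ZFP36L2 and ZBTB8OS was 0.18. Leaving out the 10 ZNF genes that overlap another locus, also chosen so, kept 2 genes higher and 10 lower. These were 2.11% and 10.5% of 95 genes, beside 4.92% and 15.7% of all genes tested.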
